A study of Mus musculus with 9 samples.

Results

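The mRNA levels of 10 heat shock protein and cochaperone genes were described in mouse tumours. They were the rows of the expression table whose gene symbol was Hspa1a, Hspa1b, Hsph1, Dnajb1, Hspb1 or Bag3, which are strongly heat-inducible, or Hspa8, Hsp90aa1, Hspd1 or Hspe1, which are abundant in unstressed cells and are called constitutive here. All 10 were found among the 35321 genes of the table, each in 1 row, and all 10 passed the filter on low values. The tumours grew from LLC (Lewis lung carcinoma) cells, a mouse lung cancer line, placed under the skin of 1 flank (the right) in C57BL/6 mice, all male and 4 to 5 weeks old. From 5 days after the injection the mice were given PBS vehicle, 0.1 mg/kg digoxin or 1 mg/kg digoxin intraperitoneally, and whole tumour RNA was sequenced in 3 samples per group. The labels state neither that each sample is its own mouse nor the number of doses nor the time of harvest. The p-values therefore reflect how far these samples differ among themselves, and that spread may be technical. The cell line is 1 line in 1 host strain, and every group carried the same graft.

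Heat shock proteins keep other proteins folded. HSP70 proteins (Hspa1a and Hspa1b, the inducible forms, and Hspa8, the constitutive HSC70) bind exposed hydrophobic stretches of client proteins in a cycle driven by ATP, which J-domain proteins such as Dnajb1 start by stimulating ATP hydrolysis and which nucleotide exchange factors such as Hsph1 (HSP110) and Bag3 end. Hspb1 (HSP25 in mouse) holds unfolding proteins without ATP, HSP90 (Hsp90aa1) matures kinases and steroid receptors, and HSP60 (Hspd1) with its lid HSP10 (Hspe1) folds proteins imported into mitochondria. When unfolded proteins accumulate, heat shock factor 1 (HSF1) is released from chaperones, trimerises and binds heat shock elements, repeats of the unit NGAAN in alternating orientation, in the promoters of many of these genes. Digoxin is a cardiac glycoside that blocks the sodium pump (Na,K-ATPase), and the alpha-1 subunit of the mouse pump is known to be far less sensitive to it than the human one.

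The promoter windows printed are those of genes with a match to the heat shock element, the site through which HSF1 acts. They are shown because these genes rose (Hspa1a, Hspa1b and Hspb1), fell (Hsph1) or share their window with a gene that fell (Hspe1, beside Hspd1). The windows are RefSeq sequences of build GRCm38.p6 and run 5′ to 3′ on the gene's strand, from 250 bases before to 50 bases after the annotated start. Windows were found for 8 of the 10 genes; Hspa8 and Hsp90aa1 had none. Capitals mark 13-base matches to 3 alternating units, searched as GAANNTTCNNGAA and as its reverse complement TTCNNGAANNTTC, which together cover both strands. Neighbouring matches of the pair can overlap. Hspa1a (chr17:34972107-34972406, minus strand) and Hspa1b (chr17:34959189-34959488, minus strand) have windows with the same base at 296 of 300 positions, and both carry a stretch from 114 to 97 bases before the start in which each motif matches with 1 mismatch among its 9 fixed letters.
Hspa1a: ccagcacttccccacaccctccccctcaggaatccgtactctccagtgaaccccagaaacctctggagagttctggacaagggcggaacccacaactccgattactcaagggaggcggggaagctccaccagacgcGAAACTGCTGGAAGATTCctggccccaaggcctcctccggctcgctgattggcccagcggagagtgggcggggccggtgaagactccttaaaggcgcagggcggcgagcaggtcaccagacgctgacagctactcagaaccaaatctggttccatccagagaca
Hspa1b: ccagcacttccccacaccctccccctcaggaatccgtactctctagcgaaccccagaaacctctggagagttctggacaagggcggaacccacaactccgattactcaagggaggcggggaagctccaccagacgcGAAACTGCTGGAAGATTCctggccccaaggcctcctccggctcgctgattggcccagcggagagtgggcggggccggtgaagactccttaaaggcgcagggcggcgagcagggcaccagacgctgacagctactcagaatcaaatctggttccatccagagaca
Hspb1 (chr5:135887669-135887968, plus strand) has 1 such match with 1 mismatch, from 117 to 105 bases before the start.
Hspb1: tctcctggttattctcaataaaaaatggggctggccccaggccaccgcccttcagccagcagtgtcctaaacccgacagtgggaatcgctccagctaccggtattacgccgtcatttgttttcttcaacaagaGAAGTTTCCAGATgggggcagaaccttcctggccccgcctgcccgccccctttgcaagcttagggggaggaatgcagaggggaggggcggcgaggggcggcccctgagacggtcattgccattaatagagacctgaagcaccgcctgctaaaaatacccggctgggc
Hsph1 (chr5:149636266-149636565, minus strand) has an exact match from 15 to 27 bases after the start, and only this is marked in capitals. A match with 1 mismatch, from 10 to 22 bases after the start, overlaps it. Others with 1 mismatch, not marked, lie from 54 to 42 and from 49 to 37 bases before the start. Another annotated start of Hsph1, whose window is not printed, puts the same exact match 36 to 48 bases after it.
Hsph1: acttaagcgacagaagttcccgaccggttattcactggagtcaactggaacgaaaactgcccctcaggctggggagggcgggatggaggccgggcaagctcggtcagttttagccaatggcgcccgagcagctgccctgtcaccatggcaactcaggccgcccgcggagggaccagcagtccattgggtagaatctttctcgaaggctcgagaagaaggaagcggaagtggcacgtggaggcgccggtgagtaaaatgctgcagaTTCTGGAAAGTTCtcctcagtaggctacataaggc
Hspe1 (chr1:55087898-55088197, plus strand) has overlapping exact matches from 89 to 72 bases before the start, shown in capitals. Hspd1 lies head to head with it on the minus strand. A window of Hspd1 shares 285 bases with that of Hspe1, and the same bases, chr1:55088059-55088076, are the exact matches of both genes. The window of another annotated Hspd1 start (chr1:55088194-55088493) holds no match, exact or with 1 mismatch.
Hspe1: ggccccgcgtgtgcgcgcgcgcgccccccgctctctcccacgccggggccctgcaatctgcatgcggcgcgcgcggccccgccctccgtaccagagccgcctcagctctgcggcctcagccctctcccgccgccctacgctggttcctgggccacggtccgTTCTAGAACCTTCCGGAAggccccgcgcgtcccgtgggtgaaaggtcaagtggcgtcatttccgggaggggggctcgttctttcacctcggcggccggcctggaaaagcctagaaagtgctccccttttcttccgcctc
Of the 8 genes, 3 had an exact match (Hsph1, Hspd1 and Hspe1) and 6 had one with at most 1 mismatch (these, Hspa1a, Hspa1b and Hspb1). Dnajb1 and Bag3 had none in their windows. Of all 32851 promoter windows of the table, 0.603% held an exact match and 7.22% one with at most 1 mismatch. A match is a description of the letters and not a binding site.

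The depth of the libraries, recovered from the spacing of their values, was 48649867 to 51810956 reads with vehicle, 42870997 to 43319883 at 0.1 mg/kg, and in the 1 mg/kg group 40517062 to 42252370. The fewest reads behind any value of the 10 genes were 136, for Hspa1a in vehicle sample 3, and the most were 169513, for Hspa8 in vehicle sample 1. Sample 2 at 0.1 mg/kg and sample 1 at 1 mg/kg lay between vehicle and the other digoxin samples on the first principal component, which held 69.4% of the variance, at -0.604 and 9.12 against 35.7 to 37.9 in the other 4 digoxin samples and -55.0 to -47.6 in vehicle. Where leaving out either library, or both, changed a call on the 10 genes, the value without them is given. The epithelial markers Epcam and Cdh1 were at most 0.149 and 0.643 FPKM in every sample. Krt8 was 58.7 to 126 FPKM in the 6 digoxin samples and 1.70 to 4.13 FPKM in vehicle, and Krt18 was 0.932 to 16.8 FPKM in the digoxin samples and 43.1 to 63.0 FPKM in vehicle. Krt19 was 0.194 to 0.31 FPKM with vehicle, 2.25 to 5.56 FPKM at 0.1 mg/kg and 7.76 to 9.44 FPKM at 1 mg/kg. These are whole tumours, so fewer cells of a type and less RNA per cell cannot be told apart.

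The inducible HSP70 genes Hspa1a and Hspa1b rose at 1 mg/kg and did not pass the test at 0.1 mg/kg. Values are FPKM, fragments scaled to transcript length and library depth, so a level per length. Hspa1a (chr17:34969190-34972156 in GENCODE M21, GRCm38, minus strand, a gene of 1 exon) had 2.58, 2.24 and 0.885 FPKM with vehicle, 4.12, 1.78 and 1.28 FPKM at 0.1 mg/kg, and 16.3, 7.23 and 10.3 FPKM at 1 mg/kg. All 3 samples at 1 mg/kg were above all 6 others, while the lower dose overlapped vehicle. Its mean was 11.3 ± 4.63 FPKM at 1 mg/kg and 1.90 ± 0.895 FPKM with vehicle (SD, n = 3 each), 5.95-fold higher. As a difference of log2(FPKM + 1), a scale that makes changes of weakly expressed genes look smaller, this was 2.07 (SE 0.38, limma adjusted p = 0.00352). At 0.1 mg/kg it was 0.19 (SE 0.38, limma adjusted p = 0.703), and that sign turned without 0.1 mg/kg sample 1 (-0.15) or vehicle sample 3 (-0.09).

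Hspa1b (chr17:34956436-34959238, minus strand) had 8.64, 7.68 and 3.65 FPKM with vehicle, 10.2, 5.04 and 4.40 FPKM at 0.1 mg/kg, and 38.9, 28.6 and 34.7 FPKM at 1 mg/kg. It separated the groups in the same way, with the 1 mg/kg samples apart and the other groups overlapping. The mean was 34.1 ± 5.16 FPKM at 1 mg/kg against 6.66 ± 2.65 FPKM with vehicle (SD, n = 3 each), 5.12-fold higher, with a log2 difference of 2.25 (SE 0.33, limma adjusted p = 0.00153). At 0.1 mg/kg the log2 difference was -0.03 (SE 0.33, limma adjusted p = 0.947). Of the windows of 150 bases, the read length, 39.7% in the Hspa1a transcript and 40.5% in Hspa1b also occur in another gene, nearly all in the other of the pair, so their split is uncertain. Hspa1a made up 19.5% to 29.6% of the pair's summed FPKM over the 9 samples, with the groups overlapping. Added and fitted as 1 gene, the pair differed by 2.34 at 1 mg/kg (SE 0.37, limma adjusted p = 0.00206) and by 0.04 at 0.1 mg/kg (SE 0.37, limma adjusted p = 0.941) on the log2 scale. Hspa1a also overlaps the gene Gm20481 on the opposite strand, and the sources used here do not give the strand setting of the counting.

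**Figure D1:**
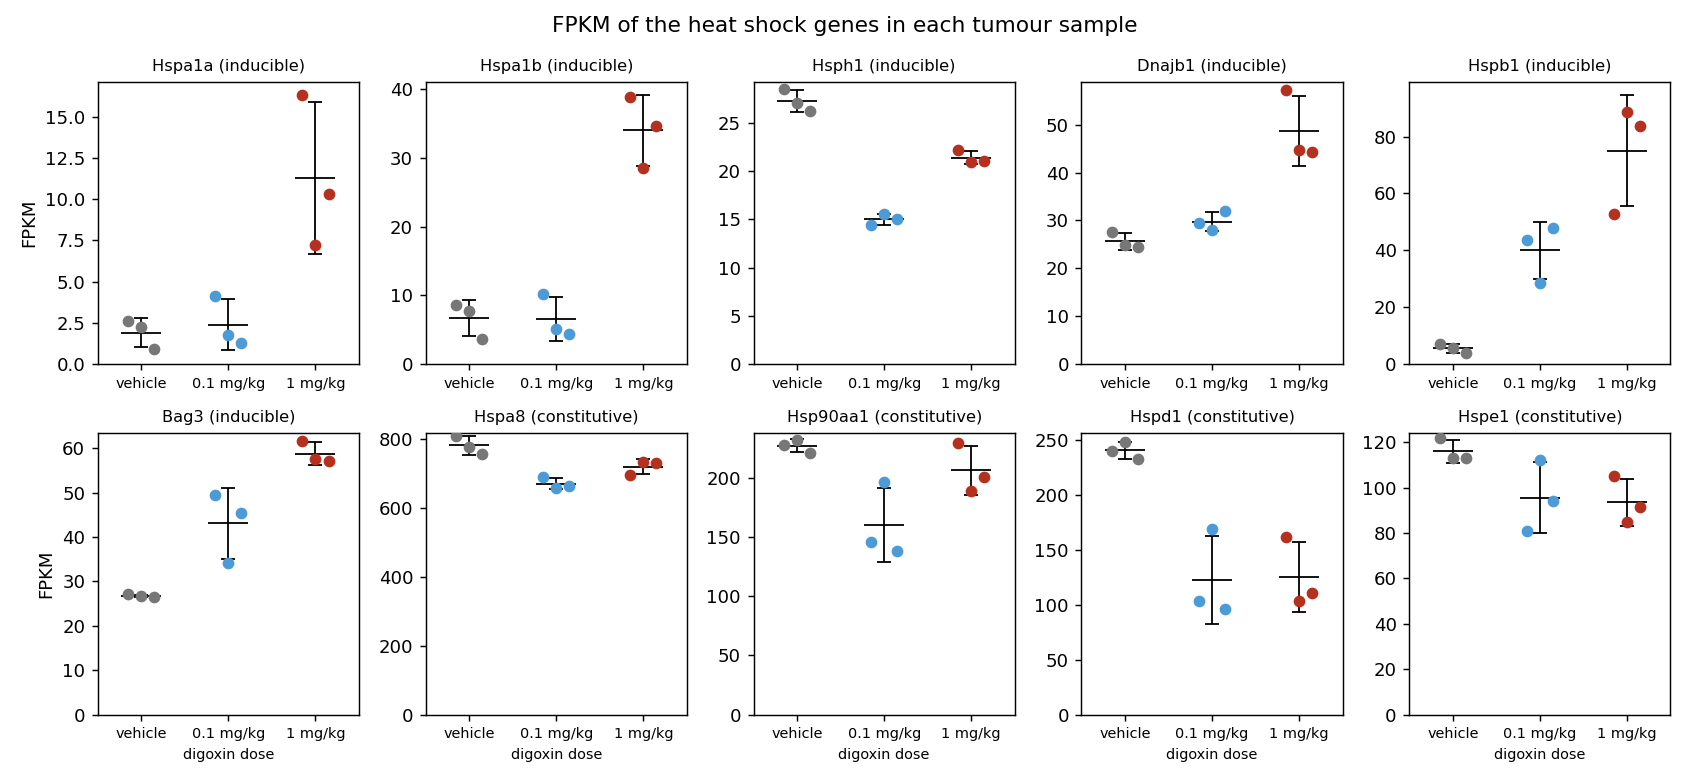
FPKM (vertical axes, from 0) of the 10 genes in each sample, by digoxin dose (horizontal axes), with 1 point per sample and black marks for the mean and SD of 3 samples. Hspa1a, Hspa1b and Dnajb1 stand apart at 1 mg/kg, Hspb1 and Bag3 are above vehicle at both doses, and Hsph1 is lowest at 0.1 mg/kg.

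Among the partners of HSP70, Dnajb1 rose at 1 mg/kg and Hsph1 fell at both doses. Dnajb1, the main inducible J-domain protein, had 27.6, 24.9 and 24.4 FPKM with vehicle, 29.4, 28.0 and 31.9 FPKM at 0.1 mg/kg, and 57.2, 44.7 and 44.4 FPKM at 1 mg/kg. None of the 3 groups overlapped. It rose to 48.7 ± 7.31 FPKM at 1 mg/kg, against 25.6 ± 1.73 FPKM with vehicle (SD, n = 3 each), a log2 difference of 0.89 (SE 0.11, limma adjusted p = 0.000832). The difference at 0.1 mg/kg was 0.21 (SE 0.11, limma adjusted p = 0.157), and it passed the test without 1 mg/kg sample 1 (adjusted p = 0.0464) or without that library and 0.1 mg/kg sample 2 (adjusted p = 0.0179).

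Hsph1, the HSP110 that releases ADP from HSP70, was lower at both doses. It had 28.5, 27.1 and 26.2 FPKM with vehicle, 14.4, 15.6 and 15.0 FPKM at 0.1 mg/kg, and 22.2, 20.9 and 21.1 FPKM at 1 mg/kg. The groups did not overlap, and the lower dose lay farther from vehicle than the higher one. It fell to 15.0 ± 0.628 FPKM at 0.1 mg/kg, against 27.3 ± 1.15 FPKM with vehicle (SD, n = 3 each), a log2 difference of -0.82 (SE 0.07, limma adjusted p = 0.000259). At 1 mg/kg it fell to 21.4 ± 0.711 FPKM (SD, n = 3), a log2 difference from vehicle of -0.34 (SE 0.07, limma adjusted p = 0.00484). Hsph1 was thus the only one of the 6 inducible genes that fell, at either dose. Among the promoter windows of these 6 genes, the exact 3-unit match was in that of Hsph1 alone. Those of Hspa1a, Hspa1b and Hspb1 had matches with 1 mismatch. A link between the matches and the direction of change was not tested.

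Hspb1 and Bag3 rose at both doses. Hspb1, the small heat shock protein, had 7.16, 5.70 and 3.97 FPKM with vehicle, 43.5, 28.6 and 47.8 FPKM at 0.1 mg/kg, and 52.8, 88.7 and 83.8 FPKM at 1 mg/kg. Every digoxin sample was at least 28.6 FPKM, with no overlap with vehicle and none between the doses. The mean was 39.9 ± 10.1 FPKM at 0.1 mg/kg and 5.61 ± 1.60 FPKM with vehicle (SD, n = 3 each), 7.12-fold higher (log2 difference 2.63, SE 0.27, limma adjusted p = 0.0005). At 1 mg/kg it was 75.1 ± 19.4 FPKM (SD, n = 3), 13.4-fold above vehicle (log2 difference 3.52, SE 0.27, limma adjusted p = 0.000182). That difference ranked 30 from the highest among the 13687 genes tested, and the one at 0.1 mg/kg ranked 94. Of its 150-base windows 36.6% also occur in the pseudogene Hsp25-ps1, which was listed at no more than 0.274 FPKM in any sample.

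Bag3, a nucleotide exchange factor that also links HSP70 and small heat shock proteins to autophagy, had 27.1, 26.7 and 26.6 FPKM with vehicle, 49.5, 34.2 and 45.5 FPKM at 0.1 mg/kg, and 61.7, 57.6 and 57.2 FPKM at 1 mg/kg. The 3 groups did not overlap, and the lowest value at 0.1 mg/kg was in sample 2, the sample that lay toward vehicle over all genes. The log2 difference from vehicle was 0.65 at 0.1 mg/kg (SE 0.12, limma adjusted p = 0.00475) and 1.11 at 1 mg/kg (SE 0.12, limma adjusted p = 0.000593). Bag3 shares no 150-base window with another gene, but it overlaps the gene 2610306O10Rik on its own strand.

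The abundant cytosolic chaperones Hspa8 and Hsp90aa1 fell at 0.1 mg/kg, with calls that were lost without some single libraries, and did not pass the test at 1 mg/kg. Hspa8 had 810, 778 and 757 FPKM with vehicle, 689, 659 and 663 FPKM at 0.1 mg/kg, and 695, 734 and 731 FPKM at 1 mg/kg. Both doses lay below every vehicle sample. It fell to 670 ± 16.3 FPKM at 0.1 mg/kg, against 782 ± 26.7 FPKM with vehicle (SD, n = 3 each), a log2 difference of -0.22 (SE 0.08, limma adjusted p = 0.0428). This call did not hold when any single library other than 1 mg/kg sample 1 was left out (adjusted p = 0.0647 to 0.121). It was also lost with no filter (adjusted p = 0.202), with only the 2 groups compared (adjusted p = 0.0684) and with the replicate number as a block (adjusted p = 0.0872). At 1 mg/kg the log2 difference was -0.12 (SE 0.08, limma adjusted p = 0.224). After quantile normalisation the differences were -0.41 and -0.30 (adjusted p = 0.00359 and 0.0109), and as TPM -0.34 and -0.205 (adjusted p = 0.00683 and 0.0440), so that both doses passed. Of the 150-base windows of Hspa8, 21.9% also occur in other genes, among them Gm15459, listed at 26.8 to 37.9 FPKM.

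Hsp90aa1, the inducible isoform of cytosolic HSP90 and yet one of the most abundant of these genes, had 228, 232 and 221 FPKM with vehicle, 146, 196 and 138 FPKM at 0.1 mg/kg, and 229, 189 and 201 FPKM at 1 mg/kg. The lower dose lay below vehicle without overlap, while 1 mg/kg sample 1 lay within the vehicle range. It fell to 160 ± 31.2 FPKM at 0.1 mg/kg, against 227 ± 5.89 FPKM with vehicle (SD, n = 3 each), a log2 difference of -0.52 (SE 0.13, limma adjusted p = 0.0152). The call was lost without vehicle sample 2, 0.1 mg/kg sample 1 or 0.1 mg/kg sample 3 (adjusted p = 0.0530, 0.0556 and 0.0588). The difference at 1 mg/kg was -0.14 (SE 0.13, limma adjusted p = 0.404). With 1 mg/kg sample 1 and 0.1 mg/kg sample 2 both left out it was -0.22 and passed (adjusted p = 0.0200). Of its 150-base windows 36.2% also occur in other genes, mostly in Gm12346, listed at 2.76 to 4.68 FPKM.

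Of the mitochondrial chaperonin pair, Hspd1 fell at both doses and Hspe1 did not pass the test at either. Hspd1 had 240, 248 and 233 FPKM with vehicle, 103, 169 and 96.0 FPKM at 0.1 mg/kg, and 162, 103 and 111 FPKM at 1 mg/kg. All 6 digoxin samples were below vehicle, and the highest of each dose were 0.1 mg/kg sample 2 and 1 mg/kg sample 1, the 2 libraries that lay between the groups. Hspd1 fell to 123 ± 40.0 FPKM at 0.1 mg/kg and 126 ± 32.1 FPKM at 1 mg/kg, against 240 ± 7.35 FPKM with vehicle (SD, n = 3 each). The log2 differences from vehicle were -1.01 (SE 0.23, limma adjusted p = 0.00924) at 0.1 mg/kg and -0.96 (SE 0.23, limma adjusted p = 0.00991) at 1 mg/kg. Its pseudogene Hspd1-ps3, which holds 18.6% of its 150-base windows, was listed at 7.16, 7.30 and 6.94 FPKM with vehicle, 2.67, 3.46 and 2.75 FPKM at 0.1 mg/kg, and 4.25, 2.13 and 3.25 FPKM at 1 mg/kg.

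Hspe1, transcribed from the shared promoter region in the other direction, had 122, 113 and 113 FPKM with vehicle, 80.8, 112 and 94.0 FPKM at 0.1 mg/kg, and 105, 84.7 and 91.3 FPKM at 1 mg/kg. Both doses lay below vehicle, 0.1 mg/kg sample 2 by a small margin. The log2 difference was -0.29 at 0.1 mg/kg (SE 0.12, limma adjusted p = 0.0902) and -0.31 at 1 mg/kg (SE 0.12, limma adjusted p = 0.0696), so neither passed. Without 0.1 mg/kg sample 2 both passed (adjusted p = 0.0174 and 0.0316), and at 1 mg/kg the difference also passed without 0.1 mg/kg sample 1 (adjusted p = 0.0437) or 1 mg/kg sample 1 (adjusted p = 0.0308). Both passed after quantile normalisation (adjusted p = 0.0439 and 0.0265), as TPM (adjusted p = 0.0281 and 0.0277), and when 0.1 mg/kg sample 2 and 1 mg/kg sample 1 were both left out (adjusted p = 0.00374 and 0.00441). The ratio of Hspd1 to Hspe1 FPKM was 1.97, 2.19 and 2.05 in the vehicle samples, 1.28, 1.51 and 1.02 in the 0.1 mg/kg samples, and 1.55, 1.22 and 1.21 in the 1 mg/kg samples, with no overlap between either dose and vehicle. The genes overlap by 112 bases on opposite strands.

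**Figure D2:**
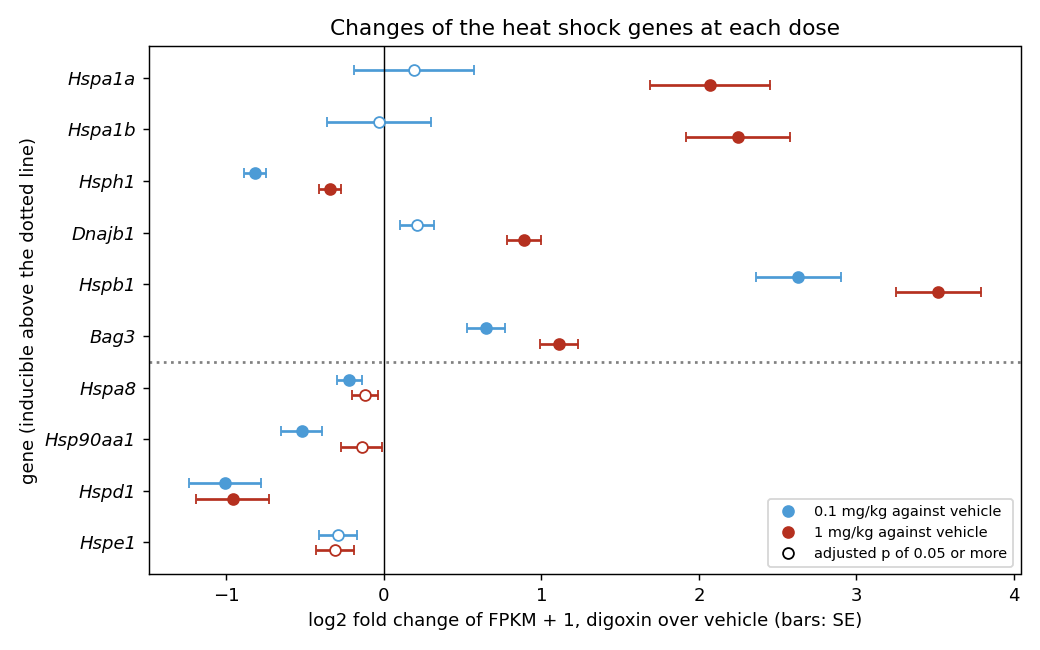
Log2 difference of FPKM + 1 between digoxin and vehicle (horizontal axis, bars: SE) for each gene (rows), with 0.1 mg/kg in blue and 1 mg/kg in red; open points did not pass the adjusted p of 0.05. Above the dotted line, 5 of the 6 inducible genes are higher at 1 mg/kg and Hsph1 is lower, and below it all 4 constitutive genes lie left of 0 at both doses.

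Counted over the class, the inducible genes were 2 higher (Hspb1 and Bag3), 1 lower (Hsph1) and 3 not called at 0.1 mg/kg, and 5 higher and 1 lower at 1 mg/kg. The constitutive genes were 3 lower at 0.1 mg/kg (Hspa8, Hsp90aa1 and Hspd1) and 1 lower at 1 mg/kg (Hspd1), with none higher. Calls were common over the table: 42.2% of the 13687 tested genes were called at 0.1 mg/kg, 21.6% higher and 20.7% lower, and 45.9% at 1 mg/kg, 20.7% higher and 25.2% lower. The 6 of 10 genes called at the lower dose, and 7 of 10 at the higher, are read against these shares. Values without overlap with vehicle were found for 3 genes higher (Dnajb1, Hspb1 and Bag3) and 5 lower (Hsph1 and the 4 constitutive genes) at 0.1 mg/kg, against 32.3% and 27.9% of tested genes, and for 5 higher and 4 lower at 1 mg/kg, against 25.2% and 33.1%. The median log2 difference at 1 mg/kg was 1.59 over the inducible genes, -0.23 over the constitutive ones and -0.04 over all tested genes. At 0.1 mg/kg these medians were 0.20, -0.41 and 0.02. With Hsp90aa1 counted as inducible, the medians of the inducible and constitutive genes became 1.11 and -0.31 at the higher dose, and 0.19 and -0.29 at the lower. Both comparisons use the same vehicle samples.

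Set directly against 0.1 mg/kg, the 1 mg/kg samples were higher without overlap for all 6 inducible genes and for Hspa8, against 6.05% of tested genes that were higher without overlap. None of the 10 passed limma's test adjusted over all genes, which 0.0146% of tested genes passed, and none passed in limma-voom on the recovered reads. At an unadjusted p under 0.05 limma had 7 of the 10 (the 6 inducible genes and Hsp90aa1), against 13.6% of tested genes. The log2 differences of 1 mg/kg from 0.1 mg/kg were 2.29 for Hspa1b, 1.88 for Hspa1a, 0.89 for Hspb1, 0.69 for Dnajb1, 0.48 for Hsph1 and 0.46 for Bag3, with adjusted p-values from 0.0796 to 0.214. Over the constitutive genes they were 0.38 for Hsp90aa1, 0.10 for Hspa8, 0.05 for Hspd1 and -0.02 for Hspe1. Without 0.1 mg/kg sample 2, Hsph1 passed (adjusted p = 0.0238). Without that sample and 1 mg/kg sample 1, Hsph1, Hspa1b, Dnajb1 and Hsp90aa1 passed (adjusted p = 0.0121, 0.0446, 0.0174 and 0.0199).

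The balance between the classes differed from group to group. The 6 inducible genes made up 6.76%, 6.44% and 6.08% of the summed FPKM of the 10 genes in the vehicle samples, 12.9%, 9.07% and 12.8% in the 0.1 mg/kg samples, and 17.3%, 18.2% and 18.1% in the 1 mg/kg samples. The 3 groups did not overlap. Summed FPKM of the inducible genes was 85.7 to 102 with vehicle, 113 to 151 at the lower dose, and 248 to 252 at the higher. The inducible HSP70 pair amounted to 1.38%, 1.27% and 0.599% of Hspa8 FPKM in the vehicle samples, 2.07%, 1.04% and 0.857% in the 0.1 mg/kg samples, and 7.95%, 4.89% and 6.16% in the 1 mg/kg samples. Even at the higher dose the FPKM of Hspa8 was thus more than 10 times that of the pair. These shares were computed after the direction of the genes was known and carry no test.

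**Figure D3:**
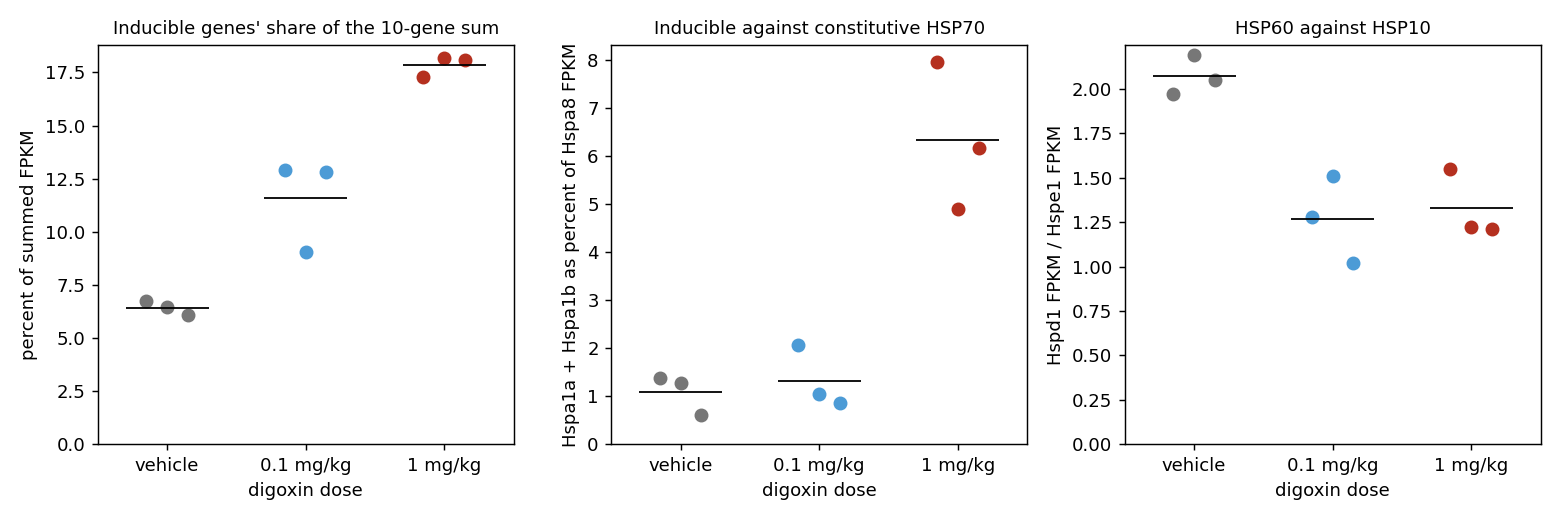
Inducible genes' percent of the summed FPKM of the 10 genes, Hspa1a plus Hspa1b as percent of Hspa8 FPKM, and the Hspd1 to Hspe1 ratio (vertical axes, from 0) by digoxin dose, with 1 point per sample and lines at group means. The first panel separates all 3 groups, the second separates 1 mg/kg from the rest, and the third separates vehicle (1.97 to 2.19) from both doses (1.02 to 1.55).

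In order of FPKM with vehicle, Hspa8 was highest, followed by Hspd1, Hsp90aa1 and Hspe1, none of which overlapped its neighbour, then by Hsph1, Bag3 and Dnajb1, whose samples overlapped, by Hspa1b and Hspb1, which overlapped, and by Hspa1a. At 1 mg/kg Hspa8 stayed on top, Hsp90aa1 was next, and Hspb1 overlapped Hspe1 and Bag3 but lay below every Hspd1 value. Hsph1 then lay below Hspa1b, and Hspa1a was lowest. How the genes varied together over the 9 samples is given as Pearson r of log2(FPKM + 1), as a description only, since samples share groups. Hspa1a had an r of 0.98 with Hspa1b and 0.92 with Dnajb1, and Hspb1 had 0.95 with Bag3. Hsph1 had 0.91 with Hspa8 and 0.87 with Hsp90aa1, and between 0.03 and 0.11 with the Hspa1 genes. Hspd1 had 0.92 with Hspe1 and -0.90 with Hspb1.

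Among the factors that control heat shock transcription, Hsf4 rose at both doses and Hsf1 did not pass the test. Counts of the chaperone and marker lists that follow stand beside the shares of all tested genes: 21.6% rose and 20.7% fell at 0.1 mg/kg, and 20.7% rose and 25.2% fell at 1 mg/kg. The list held 6 genes, all tested, among them Dedd2, a death effector domain-containing DNA binding protein. At the lower dose 3 rose (Hsf4, Hsbp1 and Dedd2) and 0 fell. At the higher 2 rose (Hsf4 and Dedd2) and 0 fell, and the median log2 differences were 0.17 and 0.40. Of the 3 at the lower dose, Dedd2 lost its call in 8 of 9 fits without 1 library (adjusted p up to 0.144, the fit leaving out 0.1 mg/kg sample 1). Hsbp1 lost its call without vehicle sample 2, vehicle sample 3 or 0.1 mg/kg sample 3 (adjusted p = 0.0511, 0.0540 and 0.0554). Hsf1 itself was 13.8 to 16.1 FPKM over all samples, with log2 differences of -0.08 and -0.04 that did not pass. Hsf4, a relative known for its part in the lens, rose to 15.4 ± 2.07 FPKM at 0.1 mg/kg and 15.3 ± 1.20 FPKM at 1 mg/kg, against 6.97 ± 0.102 FPKM with vehicle (SD, n = 3 each), with a log2 difference of 1.03 at both doses (limma adjusted p = 0.0005 and 0.000431). Ier5, known as a coactivator of HSF1, had log2 differences of 0.02 and 0.51, neither of which passed.

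Most other small heat shock proteins rose as well. Of 5 tested among 7 listed, 3 rose at the lower dose, 4 at the higher, none fell, and the median log2 differences were 1.29 and 1.27. Of all tested genes 21.6% and 20.7% rose. Cryab, alpha-B crystallin, rose to 28.4 ± 11.8 FPKM at 0.1 mg/kg and 29.5 ± 10.6 FPKM at 1 mg/kg, against 4.36 ± 1.58 FPKM with vehicle (SD, n = 3 each), log2 differences of 2.40 (limma adjusted p = 0.00232) and 2.48 (limma adjusted p = 0.00168). Hspb8, the partner of Bag3, had 0.48 at 0.1 mg/kg (limma adjusted p = 0.0585) and rose by 0.89 at 1 mg/kg (limma adjusted p = 0.00514). Hspb2 and Hspb6 rose by 1.41 and 1.29 on the log2 scale at the lower dose, and by 1.73 and 1.27 at the higher one. Hspb2 averaged 0.114 FPKM with vehicle, so its values follow the pseudocount, and with 0.01 in place of 1 they were 4.25 and 4.84. Cryab, Hspb2 and Hspb6 are also genes of muscle.

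Skeletal muscle markers moved in the same samples. Beside 21.6% (0.1 mg/kg) and 20.7% (1 mg/kg) of all tested genes that rose, 4 of 9 tested muscle markers rose at each dose and none fell. Of the 10 markers listed, Myh2 was below the filter. Their summed level was 107, 35.8 and 32.8 FPKM with vehicle, 294, 160 and 341 FPKM at 0.1 mg/kg, and 54.7, 416 and 1180 FPKM at 1 mg/kg. In 1 mg/kg sample 1, where this sum was within the vehicle range, Hspa1a, Hspa1b, Dnajb1 and Bag3 were the highest of all 9 samples. Hspb1 was 52.8 FPKM there, above every vehicle sample but the lowest of the 1 mg/kg group (88.7 and 83.8 FPKM in the others). Cryab was 18.1 FPKM there, the lowest of the 1 mg/kg group, against 6.18 FPKM in the highest vehicle sample. At 0.1 mg/kg, Hspb1 and the muscle sum were both lowest in sample 2. The part of muscle RNA in the result was not tested, for the small heat shock proteins or for the 10 genes.

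Among the HSP90 genes and the cochaperones of the HSP70 and HSP90 cycle, more fell than rose. All 3 other HSP90 genes fell at the lower dose, and 2 at the higher, where 20.7% and 25.2% of all tested genes fell. The call of Hsp90b1 at 0.1 mg/kg (-0.41, limma adjusted p = 0.0262) was lost without vehicle sample 2, vehicle sample 3, 0.1 mg/kg sample 2 or 0.1 mg/kg sample 3 (adjusted p = 0.0577 to 0.0852) and with no filter (adjusted p = 0.0634). Hsp90ab1, the constitutive cytosolic HSP90, fell to 743 ± 95.5 FPKM at 0.1 mg/kg and 838 ± 108 FPKM at 1 mg/kg, against 1200 ± 32 FPKM with vehicle (SD, n = 3 each), log2 differences of -0.70 (limma adjusted p = 0.00371) and -0.53 (limma adjusted p = 0.00956, or 0.0511 with no filter). Trap1, the mitochondrial HSP90, differed by -0.69 and -0.71. Of 21 BAG family genes and cochaperones, 1 rose and 11 fell at each dose, with medians of -0.28 and -0.26, beside the same shares of all tested genes. Among those that fell were Cdc37, which brings kinases to HSP90 (-0.56 and -0.57), and Ahsa1, which speeds its ATPase (-0.62 and -0.64), and the one that rose was Bag5 (0.69 and 0.80). The cytosolic chaperonin TRiC and prefoldin had 3 higher and 7 lower of 14 at 0.1 mg/kg, and 2 higher and 7 lower at 1 mg/kg, among the lower Cct3 (-0.57 and -0.55) and Cct5 (-0.54 and -0.42), while Pfdn4 rose (0.51 and 0.61).

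Among other HSP70 and HSP110 genes, 7 of 9 were tested, 3 fell at each dose, and 1 rose, at 1 mg/kg. Hspa9, mitochondrial HSP70, fell to 62.3 FPKM on average at 0.1 mg/kg, against 127 FPKM with vehicle (log2 difference -1.06, limma adjusted p = 0.00533). At 1 mg/kg it averaged 76.9 FPKM (-0.75, limma adjusted p = 0.0181), and 4 of the 9 fits without 1 library lost this call, with the highest adjusted p = 0.0626 without 1 mg/kg sample 2. Hspa4, an HSP110 relative of Hsph1, rose at 1 mg/kg by 0.31 (limma adjusted p = 0.0116), and Hspa4l, another, fell by 0.70 and 0.64. Of 15 tested J-domain genes 1 rose and 3 fell at 0.1 mg/kg, and 3 rose and 3 fell at 1 mg/kg, shares at or below those of all tested genes (21.6% and 20.7% higher, 20.7% and 25.2% lower). Dnajb4, another J-domain gene of the same class as Dnajb1, differed by 0.11 at 0.1 mg/kg (limma adjusted p = 0.528) and rose by 0.70 at 1 mg/kg (limma adjusted p = 0.00441).

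Of 12 mitochondrial chaperones and proteases, 3 were higher and 3 lower at 0.1 mg/kg, and 1 higher and 4 lower at 1 mg/kg, beside the same shares of all tested genes. Lonp1, the matrix protease, rose by 0.63 at 1 mg/kg (limma adjusted p = 0.00194), while Clpp, another, fell by 0.55. Endoplasmic reticulum chaperones had 4 higher and 1 lower of 13 at 0.1 mg/kg, and 7 higher and 1 lower at the higher dose, led by Creld2 (0.57 and 0.69). Over all these lists, 96 genes were tested: with 0.1 mg/kg 18 rose and 31 fell, and with 1 mg/kg 21 rose and 31 fell, beside 21.6% and 20.7% of all tested genes higher and 20.7% and 25.2% lower. Between the doses none of the 96 passed limma's adjusted test.

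**Figure D4:**
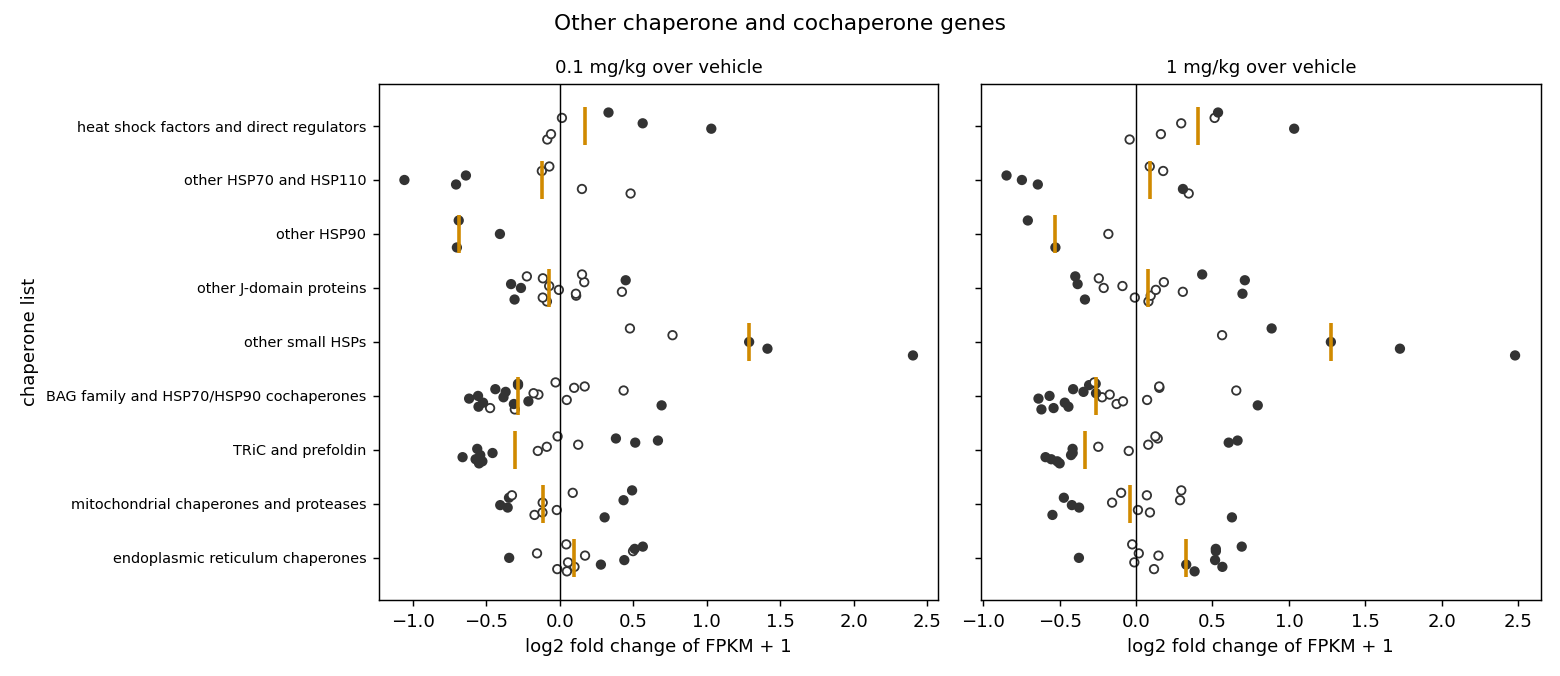
Log2 difference of FPKM + 1 between digoxin and vehicle (horizontal axes) for genes of the other chaperone lists (rows), 0.1 mg/kg on the left and 1 mg/kg on the right; filled points passed the adjusted p of 0.05, and orange bars are list medians. Small heat shock proteins lie to the right of 0 (medians 1.29 and 1.27), and HSP90 genes to the left (medians -0.69 and -0.53).

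Genes like the inducible ones were sought only among tested genes outside the 10 genes and the chaperone and marker lists. Predicted or unnamed genes were left out. Among the rest, the genes whose levels followed the mean of the 6 inducible genes most closely over the 9 samples were Cttn (Pearson r = 0.971), Snrnp70 (0.966), Kctd11 (0.956), Thbd (0.955), Bnip3l (0.954), Hdac5 (0.951), Dnaaf5 (0.949) and Cldn12 (0.945). They are given as a description over 9 samples that share 3 groups. Pearson r takes no account of size. At 1 mg/kg their means were 1.19-fold (Cttn, Snrnp70 and Dnaaf5) to 2.52-fold (Thbd) those with vehicle. The 5 inducible genes that rose were 1.9-fold (Dnajb1) to 13.4-fold (Hspb1) vehicle, and Hsph1 was 0.783-fold. Thbd, thrombomodulin, had 6.44, 5.94 and 5.27 FPKM with vehicle, 9.57, 7.18 and 5.98 FPKM at 0.1 mg/kg, and 19.3, 11.5 and 13.7 FPKM at 1 mg/kg. Kctd11 had 9.98, 11.3 and 8.91 FPKM with vehicle, 10.3, 10.3 and 9.38 FPKM at 0.1 mg/kg, and 20.1, 15.6 and 16.0 FPKM at 1 mg/kg. For both genes, as for Hspa1a, the highest value was in 1 mg/kg sample 1 and the lower dose overlapped vehicle. Hsph1 itself had an r of -0.02 with the mean of which it was part.

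Immediate early genes, which tissue handling also raises, were mostly higher at both doses, and the inducible HSP70 genes rose at 1 mg/kg. For these and the other marker lists, the shares of all tested genes were 21.6% higher and 20.7% lower at 0.1 mg/kg. At 1 mg/kg they were 20.7% higher and 25.2% lower. Of the 17 immediate early genes, all tested, 11 rose and 1 fell at 0.1 mg/kg, and 16 rose and 1 fell at 1 mg/kg. Their summed level was 374, 336 and 305 FPKM with vehicle, 1020, 640 and 616 FPKM at 0.1 mg/kg, and 2690, 1320 and 1450 FPKM at 1 mg/kg. In every group this sum, Hspa1a and Hspa1b were highest in sample 1. The part of tissue handling in the result was not tested. Of the other marker lists, T cell genes were 7 higher of 8 tested at 0.1 mg/kg and 1 lower at 1 mg/kg (summed FPKM 20.5 to 25.7 with vehicle, 42.9 to 74.8 at the lower dose, 8.73 to 30.3 at the higher). Neutrophil genes were 3 and 5 higher of 6 (49.7 to 179, 124 to 749 and 487 to 1140 FPKM), and macrophage genes 4 higher of 8 at 0.1 mg/kg, and 3 higher and 2 lower at 1 mg/kg (1200 to 1290, 1560 to 2420 and 947 to 1570 FPKM). Fibroblast genes were 2 higher and 3 lower of 6 at 0.1 mg/kg, and 1 higher and 4 lower at 1 mg/kg (952 to 1070, 319 to 673 and 325 to 588 FPKM). Of 6 endothelial genes none passed, and of 3 proliferation genes 1, Top2a, fell at each dose.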

How the data were processed

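One deposited table gave FPKM, which the authors computed per gene and sample, for 35321 genes in 9 samples, 3 per group. Per the labels' protocols, poly(A)-selected libraries were sequenced as 150 bp read pairs. The tools named, per the submitters' processing notes, are HISAT2 2.2.1 and fastp 0.22.0, with GRCh38 as the build, which is human, while the symbols are those of mouse genes. For the read counter, its annotation and its strand setting, the sources used here give nothing.

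The 10 genes were matched by symbol. A gene was tested where 3 or more of the 9 samples reached 1 FPKM (13687 genes), with limma 3.58.1 (R 4.3.3) on log2(FPKM + 1), with 1 mean per group, a mean-variance trend and all 9 samples. Tests were two-sided, and p-values were adjusted by Benjamini-Hochberg over the whole tested table and called under 0.05. Library depths were worked out from the steps between low FPKM values, and with them 99.95% of tested genes came out as whole reads (to within 0.03) in all samples. These reads served for the limma-voom alternative only, and whether 1 stands for a read or a pair is not stated. Fitted lengths of the 1-exon genes Hspa1a (2967 bases) and Hspa1b (2803 bases) equal their spans in GENCODE M21, from which positions, overlaps and shared 150-base windows were taken. Promoters are RefSeq windows of GRCm38.p6.

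All 10 genes are named. Of each related list up to 4 genes with the smallest p against vehicle could be named. So could the 8 genes most correlated with the mean of the inducible ones, outside the 10 genes, all lists, and predicted or unnamed genes. Hsf1 and Top2a were named after their values were seen. The members and lists were chosen with earlier results of these data known. The fits were tested on simulated data. Alternatives changed the pseudocount, filter, scaling, variance model, samples and pairing.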

Additional observations from a re-analysis of the deposited data

How the results depend on the processing

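Under the alternatives, 5 to 7 of the 10 genes were called at the lower dose, and 7 to 9 at the higher. Leaving out 1 library gave 4 to 7 and 7 to 8, and leaving out both libraries lying between the groups gave 8 and 9. Hsph1, Hspb1, Bag3 and Hspd1 at both doses, and Hspa1a, Hspa1b and Dnajb1 at 1 mg/kg, kept their call in all 22 alternatives. Between doses 0 genes were called, with 0 to 1 without 1 library and 4 without both. With the replicate number as a block, 5, 7 and 0 genes were called (Hspa8 was lost at 0.1 mg/kg, adjusted p = 0.0872). The labels do not say what a replicate number marks, so the numbers were not read as pairing. Over all tested genes, deviations of samples with the same number had correlations of -0.441 to 0.279, against -0.475 to 0.520 for different numbers. Hspa1a and Hspa1b were, however, highest in sample 1 of every group. With the block their SE at 1 mg/kg was 0.23 each, in place of 0.38 and 0.33. Hspe1 passed at both doses after quantile normalisation (adjusted p = 0.0439 and 0.0265) and rescaling to TPM (0.0281 and 0.0277), and Hspa8 did so too (0.00359 and 0.0109, and 0.00683 and 0.0440). The call of Hspa8 at 0.1 mg/kg was, however, lost in 11 of the 22 alternatives. Signs that turned were of differences that did not pass: Hspa1a at 0.1 mg/kg (-0.149 to 0.433 without 1 library), Hspa1b at 0.1 mg/kg (-0.356 to 0.171 without 1 library, 0.090 without both, 0.039 when added to Hspa1a), and between doses Hspd1 (-0.148 to 0.302 without 1 library) and Hspe1 (0.007 as TPM, 0.024 at equal medians, -0.134 to 0.097 without 1 library, 0.013 without both). The cause was not tested. Over all genes, 5781 were called at 0.1 mg/kg and 6277 at 1 mg/kg. Without 1 library the counts were 3414 to 7074 and 4129 to 7373, between doses 0 to 133 in place of 2. With fewer genes tested (mean of at least 5 FPKM) 4159 were called at 1 mg/kg. Between doses 465 were called without both libraries, 10 with no filter, 1 with the mean filter, equal medians or no trend, and 0 with either other pseudocount, only the 2 groups or the block. The share of calls that were higher at 0.1 mg/kg was 51.1%, against 40.4% after quantile normalisation and 38.5% as TPM. TPM put the median log2 difference of all genes at -0.09 (0.1 mg/kg) and -0.12 (1 mg/kg), in place of 0.02 and -0.04. With 3 samples a group, 2.7 prior and 6 residual degrees of freedom, small differences could not be resolved.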
